A study of Mus musculus with 46 samples.

Results

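The genes described here are 5 components of caveolae, namely Cav1, Cav2, Cavin1, Cavin3 and Ehd2, out of 10453 gene symbols listed in the count tables. They were selected by symbol, and the list was drawn up after the counts of these libraries had been seen. The adjusted p-values below therefore place each gene within a fit of all genes and are no independent evidence about the group. All 5 genes were listed in every library and passed the filter of a mean of at least 10 counts in every comparison, with 167 to 7751 footprint counts and 3174 to 114034 RNA counts per library.

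Caveolae are flask-shaped pits of the plasma membrane that flatten when the membrane is stretched and are known for roles in mechanoprotection, lipid handling and signalling. Cav1 (caveolin-1) is the integral membrane protein without which caveolae do not form outside muscle, and Cav2 (caveolin-2) joins it in hetero-oligomers. Cavin1 is the cytoplasmic coat protein that stabilises the pit, Cavin3 is a coat subunit that joins Cavin1, and Ehd2 is a dynamin-related ATPase that holds the neck of the pit at the surface.

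Ribosome-protected fragments (footprints) and poly(A) RNA were measured in EPP2, a murine pancreatic cancer cell line; the study worked with a clone grown from a single cell that carries doxycycline-inducible Cas9. The Ctu1 inducible knockout (Ctu1 iKO) removes the thiouridylase subunit that, with Elongator, modifies the wobble uridine of tRNAs reading AAA, CAA and GAA codons, and it was induced with 300 ng/mL doxycycline 4 days before the experiment. Control cells, labelled wild type, and Ctu1 iKO cells received solvent (DMSO) or 300 nM torin 1, an inhibitor of the mTOR kinase, for 2 h. Each assay has 6 control DMSO, 5 Ctu1 iKO DMSO, 6 control torin 1 and 6 Ctu1 iKO torin 1 libraries. The label on induction stands on every library, controls included, but speaks of the knockout only, and the methods allow for uninduced controls as well as for neutral guides. Whether the controls here received doxycycline is therefore not settled, and Ctu1 loss cannot be told apart from a separately transduced population. The methods give 2 independent replicates, made a day apart, the legends call 5 or 6 experiments independent, and the labels number 5 or 6 libraries a group without saying which were grown separately. The p-values and SDs below count each numbered library and measure the spread between these samples. Statements that groups did or did not overlap are descriptions, and the share of all genes whose groups stand apart was not counted. All groups grew in the same medium.

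The tables held 4602092 to 52907878 footprint counts and 129881946 to 325494304 RNA counts per library. Each library was placed along the torin 1 and Ctu1 effects of replicates 1 and 2 over all other genes, on scales where untreated or control cells define 0 and treated or knockout cells 1. Footprint libraries labelled torin 1 lay at 0.429 to 1.18 of the torin 1 effect and those labelled DMSO at -0.257 to 0.0259, and Ctu1 iKO footprints lay at 0.394 to 1.25 of the Ctu1 effect and control footprints at -0.252 to 0.151. The labelled groups thus did not overlap in footprints, although several libraries of replicates 3 to 6 lay short of the middle of the scale. Replicates 1 and 2 built the scales, so their agreement with their labels was set in advance. Only replicates 3 to 6 could depart, and the facing ends of these ranges (0.429 and 0.0259, 0.394 and 0.151) are theirs. In RNA, 6 libraries lay apart from their labels on at least 1 scale. RNA under the label Ctu1 iKO DMSO lay at 0.825 and 0.718 of the torin 1 effect in replicates 4 and 5. RNA under the label control torin 1 lay at 0.796 and 0.771 of the Ctu1 effect in replicates 5 and 6, and at -0.161 and -0.187 of the torin 1 effect. RNA under the label Ctu1 iKO torin 1 lay at 0.0788 and -0.0424 of the Ctu1 effect in replicates 5 and 6, and at 0.279 and 0.31 of the torin 1 effect. RNA values below are those of replicates 1 to 3 (12 libraries), a choice fixed with the gene list and not by these positions. Values with all replicates are given where they differ. Not all RNA libraries left out lay apart from their labels. Control DMSO replicates 4 to 6 and replicate 4 of both torin 1 groups lay with theirs. Ctu1 itself was listed only with DMSO. Levels are given as counts-per-million values (CPM), relative to the total of the library. Ctu1 RNA stood at 4.61 ± 0.12 CPM in control and 4.62 ± 0.30 in Ctu1 iKO cells (SD, n = 3 each). RNA replicates 4 to 6 gave 5.25, 4.21 and 4.50 CPM in control, and the 2 libraries under the label Ctu1 iKO DMSO, both among those that lay apart from their label, gave 3.27 and 3.09 CPM, below every control library. Ctu1 footprints stood at 2.52 ± 0.65 (n = 6) in control and 1.78 ± 0.41 (n = 5) in Ctu1 iKO cells, a log2 change of -0.54 ± 0.29 (SE, adjusted p = 0.353); counts over the whole gene do not show whether a short edit is present. In these bulk samples, fewer cells of a type and less RNA per cell cannot be told apart. Of the ductal markers Krt8, Krt18, Krt19 and Sox9 were listed in both tables, Epcam with DMSO only and Cdh1 in neither. The fibroblast genes Col1a1, Pdgfra, Pdgfrb and Lum were also listed in both, Dcn with DMSO only and Col1a2 in neither. None of the 5 acinar, 4 endothelial or 3 adipocyte markers was listed, and 1 of 4 muscle markers (Cavin4) and 1 of 3 leukocyte markers (Cd68) were, with DMSO only.

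The codons read by the tRNAs that Ctu1 modifies are shown first, because the study varies that modification. Each line gives the 20-codon stretch of the principal coding sequence (GENCODE M21, GRCm38) that holds most AAA, CAA or GAA codons, 5′ to 3′, with these codons in capitals.
Cav1, codons 57 to 76: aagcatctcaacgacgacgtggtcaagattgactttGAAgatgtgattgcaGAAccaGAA
Cav2, codons 62 to 81: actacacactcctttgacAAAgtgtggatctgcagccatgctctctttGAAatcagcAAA
Cavin1, codons 148 to 167: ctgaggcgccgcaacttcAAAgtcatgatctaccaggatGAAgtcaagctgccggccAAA
Cavin3, codons 236 to 255: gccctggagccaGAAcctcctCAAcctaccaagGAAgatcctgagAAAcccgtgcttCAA
Ehd2, codons 436 to 455: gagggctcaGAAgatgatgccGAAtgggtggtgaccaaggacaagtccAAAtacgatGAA
Cav1 holds 9 such codons among 178, or 5.06%, and its densest stretch holds only GAA. Cav2 has 4 of 162 (2.47%), Cavin1 has 8 of 392 (2.04%), Cavin3 has 18 of 260 (6.92%) and Ehd2 has 25 of 543 (4.60%). Over the 10181 listed genes with a complete coding sequence the median was 6.06%, with quartiles of 3.97% and 8.64%. Cav2 and Cavin1 thus lay below the lower quartile, at percentiles 7.76 and 4.66, and Cavin3 was the only 1 of the 5 above the median. Cavin1 encodes most of its lysines by AAG, with 34 AAG against 5 AAA codons.

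Cav1 and Cav2 are neighbours on chromosome 6, with Cav2 at 17281185 to 17289115 and Cav1 at 17306335 to 17341452, both on the plus strand, 17220 bases apart (GRCm38). Cavin1 lies on chromosome 11 at 100956733 to 100970887, Cavin3 on chromosome 7 at 105480083 to 105482300 and Ehd2 on chromosome 7 at 15946958 to 15967567, all 3 on the minus strand. Exons of Cavin3 overlap those of Gm45667, an unlisted gene model on the opposite strand, and no other annotated exon overlaps any of the 5 genes. The 250 bases before the start sites of Cav1 and Cav2 (RefSeq, GRCm38.p6, plus strand) are shown because the pair shares a locus. Capitals mark matches on either strand to any of 6 motifs searched. These were GGGCGG for the SP1 box, the letters GTAAACA for FoxO factors, the letters GGAATG for TEAD factors, the letters TGACTCA for AP-1, the letters CACGTG for the E-box and the letters TATAAA for the TATA box.
Cav1, chr6:17306085-17306334: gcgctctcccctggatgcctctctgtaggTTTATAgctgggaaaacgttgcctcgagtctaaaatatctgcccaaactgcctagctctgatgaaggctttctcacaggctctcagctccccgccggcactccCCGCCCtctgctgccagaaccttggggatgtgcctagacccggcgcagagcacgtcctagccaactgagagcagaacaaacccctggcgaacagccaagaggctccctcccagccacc
Cav2, chr6:17280935-17281184: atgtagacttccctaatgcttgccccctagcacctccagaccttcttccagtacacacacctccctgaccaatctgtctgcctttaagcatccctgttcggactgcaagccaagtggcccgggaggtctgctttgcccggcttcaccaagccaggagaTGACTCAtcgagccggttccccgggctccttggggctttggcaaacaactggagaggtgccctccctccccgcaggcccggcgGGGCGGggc
A further RefSeq start of Cav1, with its window at chr6:17307390-17307639, holds none of the 6 motifs and is not shown. Both windows shown hold GGGCGG letters, as do 32.7% of 32851 promoter windows of the same length. Cav1 alone of the pair holds TATAAA letters, on the minus strand from -221 to -216, found in 12.4% of windows, and Cav2 alone holds TGACTCA from -92 to -86, found in 4.46%. The FoxO, TEAD and E-box letters were in neither window shown, and in 3.17%, 12.6% and 6.02% of all windows. These are matches of letters and not evidence of a factor.

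In control cells with DMSO, Cav1 and Cavin1 led the footprint levels and Cavin1 led the transcripts. In CPM per kilobase of coding sequence, Cav1 stood at 159 ± 31.2 and Cavin1 at 147 ± 20.1 (SD, n = 6), and Cav1 was the higher of the pair in only 4 of 6 libraries. Cav2 followed at 72.5 ± 14.9, Ehd2 at 52.4 ± 6.78 and Cavin3 at 25.4 ± 5.31; the ranges of Cav2 and Ehd2 overlapped. In RNA CPM per kilobase of exon, Cavin1 was highest at 94.8 ± 3.06 (SD, n = 3), followed by Ehd2 at 25.9 ± 1.03, Cav1 at 22.8 ± 3.04, Cavin3 at 13.7 ± 1.48 and Cav2 at 8.17 ± 1.07. Ehd2 was above Cav1 in 3 of 3 of these libraries, but their ranges overlapped. In Ctu1 iKO cells with DMSO the Cav1 transcript level per length was above Ehd2, at 49.5 ± 5.93 against 28.3 ± 0.43, with no overlap. Cav1 footprints then stood above Cavin1 in 5 of 5 libraries, at 361 ± 60.8 against 206 ± 44.8. The transcript scale divides by all annotated exons and the footprint scale by coding bases, so the values of the 2 scales are not compared.

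**Figure D1:**
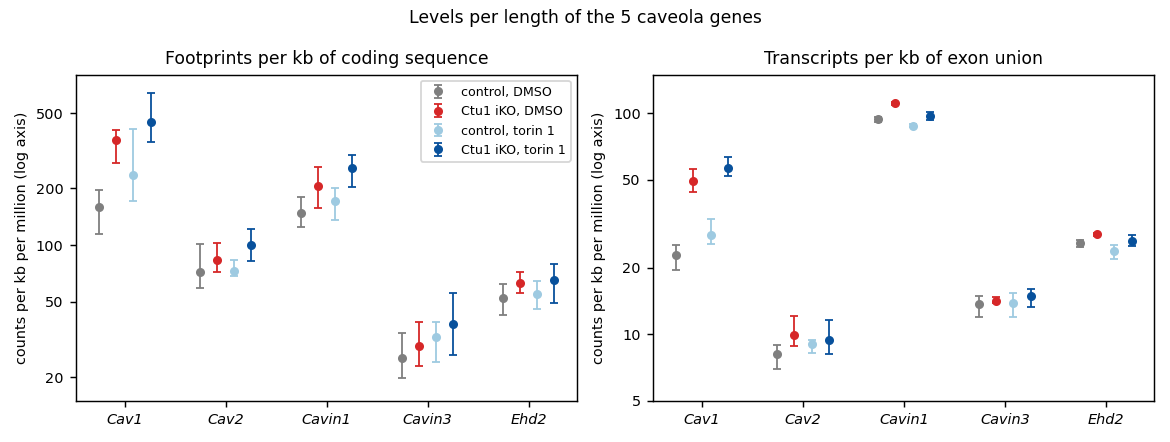
Levels of the 5 genes in each group, as footprint CPM per kilobase of coding sequence (left) and RNA CPM per kilobase of exon union (right), both on log axes. Points are means and bars run from the lowest to the highest library (footprints n = 5 or 6, RNA n = 3); Cav1 means with DMSO stand at 159 in control and 361 in Ctu1 iKO footprints, with ranges apart, and Cavin1 has the highest RNA level in all 4 groups.

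Ctu1 loss with DMSO asks how the knockout changed these genes without drug. Cav1 footprints rose 2.21-fold, and the 4 other genes had small positive changes that did not pass the test. In CPM, Cav1 footprints ran from 61.3 through a median of 85.9 to 104 in 6 control libraries and stood at 218, 212, 215, 173 and 145 in Ctu1 iKO replicates 1 to 5. Every knockout library was above every control library. The log2 change was 1.15 ± 0.15 (SE, adjusted p = 0.00128), at percentile 99.4 of all changes. In this comparison 2.66% of 10397 genes were called at an adjusted p under 0.05, and Cav1 was the only one of the 5 genes called, 3 of them having an unadjusted p under 0.05, as 17.9% of all genes had. The call was lost in replicates 1 to 3 alone (1.19 ± 0.16, adjusted p = 0.1) and in replicates 4 to 6 alone (0.99 ± 0.15, adjusted p = 0.0669), and stood when any single library was left out.

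Cavin1, the partner that coats caveolin oligomers, had footprints of 146 to 211 CPM (median 172) in control and of 253, 305, 275, 184 and 191 CPM in Ctu1 iKO libraries. The groups overlapped. The knockout was higher in 5 of 5 same-numbered pairs, but the replicate numbers do not pair the libraries of this comparison, so that count carries no weight. The log2 change was 0.44 ± 0.15 (adjusted p = 0.126, and 0.05 by DESeq2, just inside the threshold, where DESeq2 called 6.73% of all genes). Ehd2 footprints were 69.3 to 101 CPM in control and 91.2 to 117 CPM in Ctu1 iKO libraries, with a log2 change of 0.23 ± 0.10 (adjusted p = 0.276). Cav2 changed by 0.17 ± 0.14 (adjusted p = 0.567, 95% interval -0.13 to 0.47) and Cavin3 by 0.17 ± 0.18 (adjusted p = 0.671, -0.21 to 0.55). These intervals do not include a doubling for either gene. Fits that left out 1 library gave 0.09 to 0.29 for Cav2 and 0.04 to 0.28 for Cavin3, none of them called. The 5 changes ran from 0.17 to 1.15 with a median of 0.23, beside a median of 0.00 over all genes.

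**Figure D2:**
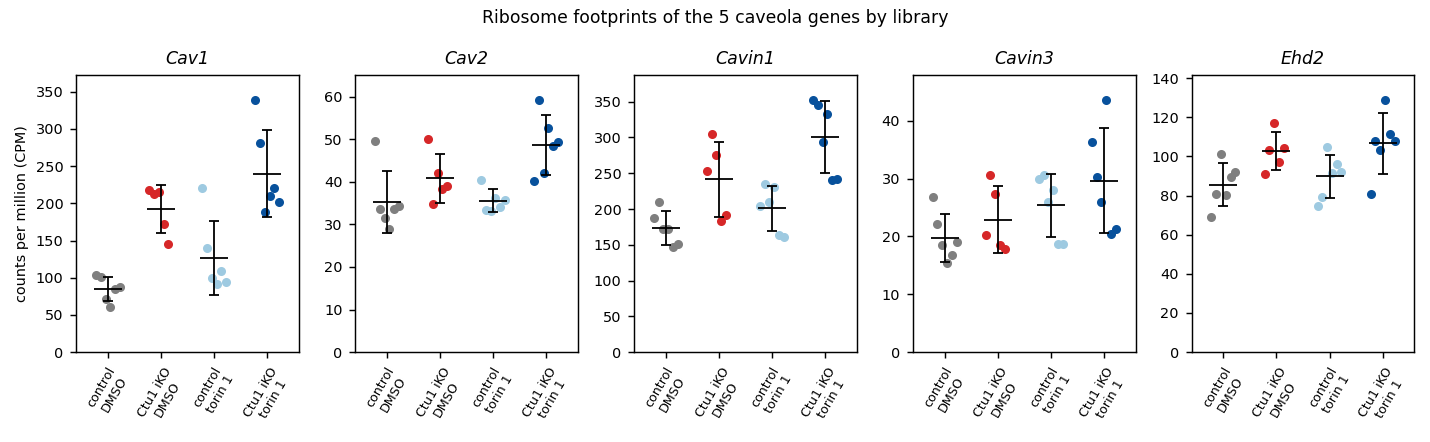
Footprint CPM of each gene in every library, by group (points ordered by replicate number within a group), with the group mean and SD as lines (n = 6, 5, 6 and 6 from left to right). The 5 Ctu1 iKO DMSO libraries of Cav1 sit between 145 and 218, all above the 6 control DMSO libraries (61.3 to 104), whereas the groups of Cav2, Cavin1, Cavin3 and Ehd2 overlap with DMSO.

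The transcripts of the same comparison moved alike for Cav1. Cav1 RNA stood at 87.7, 81.2 and 67.2 CPM in control and at 167, 152 and 192 CPM in Ctu1 iKO replicates 1 to 3, with no overlap. The log2 change was 1.14 ± 0.12 (adjusted p = 0.00789, percentile 99.4), and Cav1 was the only one of the 5 called, where 5.12% of 10119 genes were. The call was lost without control replicate 2 (1.16 ± 0.15, adjusted p = 0.0611). Cavin1 RNA was 346, 346 and 327 CPM in control and 400, 390 and 405 CPM in Ctu1 iKO cells, again with no overlap. The log2 change of 0.25 ± 0.06 (adjusted p = 0.0562) passed DESeq2 (adjusted p = 0.000571) and edgeR with a replicate block (adjusted p = 0.00896). With the block, Cav2 (0.30 ± 0.08, adjusted p = 0.0239) and Ehd2 (0.15 ± 0.05, adjusted p = 0.0472) also passed; the RNA replicate numbers pair the libraries. DESeq2 called 15.1% of all genes here and the block 28%. With all RNA replicates Cav1, Cavin1 (0.31 ± 0.06, adjusted p = 0.00433) and Ehd2 (0.19 ± 0.05, adjusted p = 0.0148) were called, beside 26.4% of all genes. That fit includes Ctu1 iKO DMSO replicates 4 and 5, which lay apart from their label on the torin 1 scale. Cavin3 RNA stood at 22.7 ± 2.46 CPM in control and 23.6 ± 0.74 CPM in Ctu1 iKO cells (SD, n = 3), a log2 change of 0.07 ± 0.09 (adjusted p = 0.646).

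The summed RNA of the 4 ductal markers was 293 to 310 CPM in control and 319 to 399 CPM in Ctu1 iKO cells with DMSO, and that of the 4 fibroblast genes was 119 to 198 and 132 to 216 CPM. In footprints the ductal sum was 301 to 379 and 355 to 483 CPM, and the fibroblast sum 244 to 486 and 160 to 489 CPM. The ductal RNA sums of the groups did not overlap and the fibroblast sums did. With torin 1 the ductal RNA sum was 382 to 425 CPM in control and 532 to 600 CPM in Ctu1 iKO cells, and the fibroblast sum 136 to 215 and 104 to 330 CPM. In footprints with torin 1 the ductal sum was 322 to 416 CPM in control and 411 to 511 CPM in Ctu1 iKO cells, and the fibroblast sum 245 to 529 and 192 to 870 CPM, all overlapping. Their part in the changes of Cav1 with and without torin 1 was not tested.

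**Figure D3:**
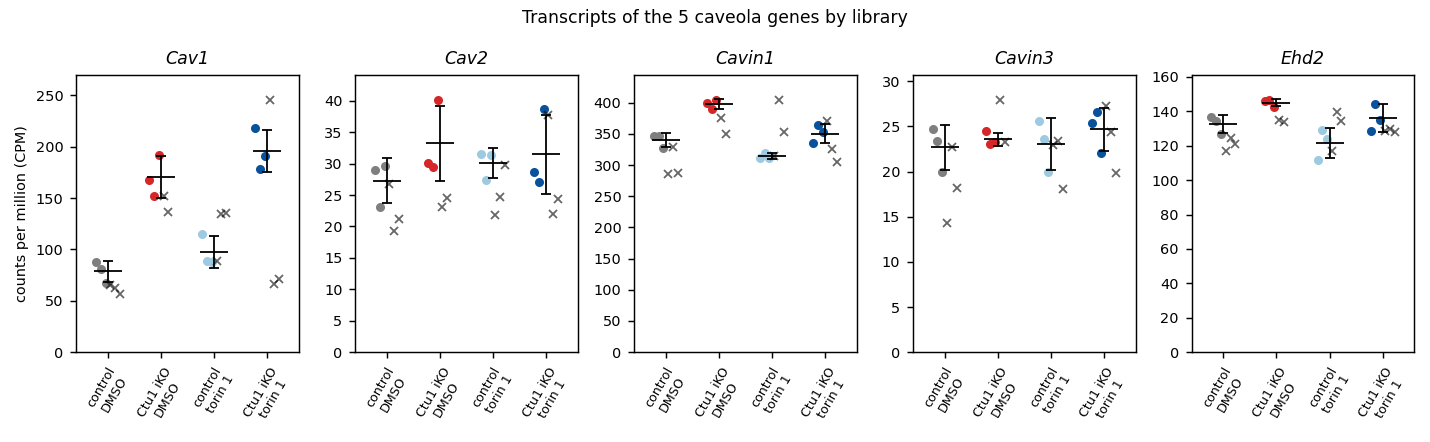
RNA CPM of each gene in every library, by group. Filled points are replicates 1 to 3, which give the mean and SD lines (n = 3), and crosses are replicates 4 to 6, which were left out of them. Filled Cav1 points of Ctu1 iKO cells (152 to 218) lie above all filled control points (67.2 to 115), and 2 crosses under the label Ctu1 iKO torin 1 lie at 66.5 and 71.5.

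Under torin 1, Cav1 and Cavin1 footprints were higher in Ctu1 iKO than in control cells, by 1.86-fold and 1.45-fold. Cav1 footprints were 92.0 to 221 CPM (median 105) in 6 control libraries and 188 to 339 CPM (median 215) in 6 Ctu1 iKO libraries. The ranges overlapped through control replicate 1, at 221 CPM, and the knockout was higher in 6 of 6 same-numbered pairs. The log2 change of Cav1 was 0.90 ± 0.22 (adjusted p = 0.028). Cavin1 footprints were 161 to 235 CPM (median 207) in control and 240 to 353 CPM (median 313) in Ctu1 iKO libraries, with no overlap, and a log2 change of 0.54 ± 0.14 (adjusted p = 0.0371). Beside these 2 of 5 genes, 4.83% of 9913 genes were called. In replicates 1 to 3 alone neither was called (Cav1 0.77 ± 0.32, adjusted p = 0.551, and Cavin1 0.57 ± 0.16, adjusted p = 0.377), and in replicates 4 to 6 alone Cavin1 was not (0.49 ± 0.19, adjusted p = 0.219).

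Cav2 footprints under torin 1 were 33.2 to 40.4 CPM (median 34.9) in control and 40.2 to 59.2 CPM (median 48.9) in Ctu1 iKO libraries. The ranges touched, and the log2 change of 0.42 ± 0.12 did not pass the test (adjusted p = 0.0528). The replicate numbers pair the footprint libraries here, and with a replicate block Cav2 was called as well (0.41 ± 0.11, adjusted p = 0.028), beside 14.4% of all genes. It was also called by DESeq2 (adjusted p = 0.00754), beside 8.49% of all genes, and with library totals alone (0.46 ± 0.11, adjusted p = 0.0339), beside 4.87%. Cavin3 (0.18 ± 0.21, adjusted p = 0.709) and Ehd2 (0.21 ± 0.12, adjusted p = 0.377) had overlapping groups.

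In RNA under torin 1, only Cav1 was called, where 1.31% of 9650 genes were. Cav1 RNA stood at 115, 89.0 and 87.9 CPM in control and 218, 178 and 190 CPM in Ctu1 iKO replicates 1 to 3. The groups did not overlap, and the log2 change was 1.06 ± 0.13 (adjusted p = 0.0284). The call was lost when control replicate 2 or 3 or Ctu1 iKO replicate 1 or 2 was left out, with changes of 0.97 to 1.13 and adjusted p-values of 0.0663 to 0.201. With all RNA replicates, which include the libraries that lie apart from their labels, it fell to 0.64 ± 0.30 (adjusted p = 0.95). Cavin1 changed by 0.21 ± 0.08 (adjusted p = 0.191), Ehd2 by 0.21 ± 0.09 (adjusted p = 0.267), Cavin3 by 0.15 ± 0.12 (adjusted p = 0.523) and Cav2 by 0.12 ± 0.15 (adjusted p = 0.716). With a replicate block Cavin1 (adjusted p = 0.0149) and Ehd2 (adjusted p = 0.019) were called too, where 32.8% of all genes were. DESeq2 called Cavin1 as well (0.20 ± 0.07, adjusted p = 0.041), beside 11.3% of all genes.

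For torin 1 given for 2 h, none of the 5 genes was called in control or in Ctu1 iKO cells. In control cells Cav1 footprints were 61.3 to 104 CPM with DMSO and 92.0 to 221 CPM with torin 1, higher in 6 of 6 same-numbered pairs. The groups overlapped, and the log2 change was 0.47 ± 0.20 (adjusted p = 0.18). The replicate numbers pair the libraries of this comparison, and with a replicate block Cav1 was called (0.43 ± 0.10, adjusted p = 0.00928); 1 of 5 is near the 20.5% of all genes called by that fit. The other 4 changes ran from -0.08 to 0.26. Over all genes 7.24% of 9856 were called, and 1 of the 5 had an unadjusted p under 0.05, as 21% of all genes had; DESeq2, which called 10.8% of all genes, called none of the 5 either.

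In Ctu1 iKO cells the footprint changes with torin 1 ran from -0.04 (Ehd2) to 0.27 (Cavin3), with Cav1 at 0.22 ± 0.17 (adjusted p = 0.498, 95% interval -0.14 to 0.59). None of the 5 was called by edgeR, at an adjusted or an unadjusted p under 0.05, or by DESeq2, while 8% of 9855 genes were called by edgeR and 11.8% by DESeq2. In RNA, torin 1 changed Cav1 by 0.33 ± 0.13 (adjusted p = 0.135) in control and by 0.26 ± 0.12 (adjusted p = 0.242) in Ctu1 iKO cells. Cavin1 RNA was lower with torin 1 in both, at 312, 320 and 311 CPM against 346, 346 and 327 CPM in control cells, with log2 changes of -0.09 ± 0.06 (adjusted p = 0.391) in control and -0.13 ± 0.08 (adjusted p = 0.361) in Ctu1 iKO cells. Beside 0 of 5 called in each, 13.1% of 9617 and 8.25% of 9619 genes were called in RNA; 1 and 0 of the 5 had an unadjusted p under 0.05, against 27.6% and 24.7% of all genes, and DESeq2 called none, against 20.4% and 16.7%. With a replicate block Cav1 RNA was called in control (adjusted p = 0.000616) and Ctu1 iKO cells (adjusted p = 0.0347), and Cav2 RNA in control cells (0.17 ± 0.05, adjusted p = 0.0221). That fit called 43.7% of all genes in control and 35.1% in Ctu1 iKO cells, so 2 of 5 and 1 of 5 do not exceed the share over all genes. With all RNA replicates the Cav1 change in control cells was 0.65 ± 0.13 (adjusted p = 0.00811), in a fit that includes the libraries under that label that lay apart from it and called 9.51% of all genes.

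Whether torin 1 altered the effect of Ctu1 loss was tested by an interaction term. For footprints it ran from -0.25 ± 0.28 for Cav1 (95% interval -0.82 to 0.33) to 0.25 ± 0.18 for Cav2 (-0.11 to 0.61), and no gene of the 5 passed (adjusted p = 0.9998 for all), where 0.639% of 9857 genes did. For RNA the term ran from -0.18 for Cav2 to 0.08 for Cavin3, and 0% of 9616 genes were called, with 140 at an unadjusted p under 0.05 and 3 called by DESeq2. None of the 5 had an unadjusted p under 0.05 in either assay, where 4.67% of all genes had in footprints and 1.46% in RNA. DESeq2 called none of the 5, beside 1.11% of all genes in footprints.

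**Figure D4:**
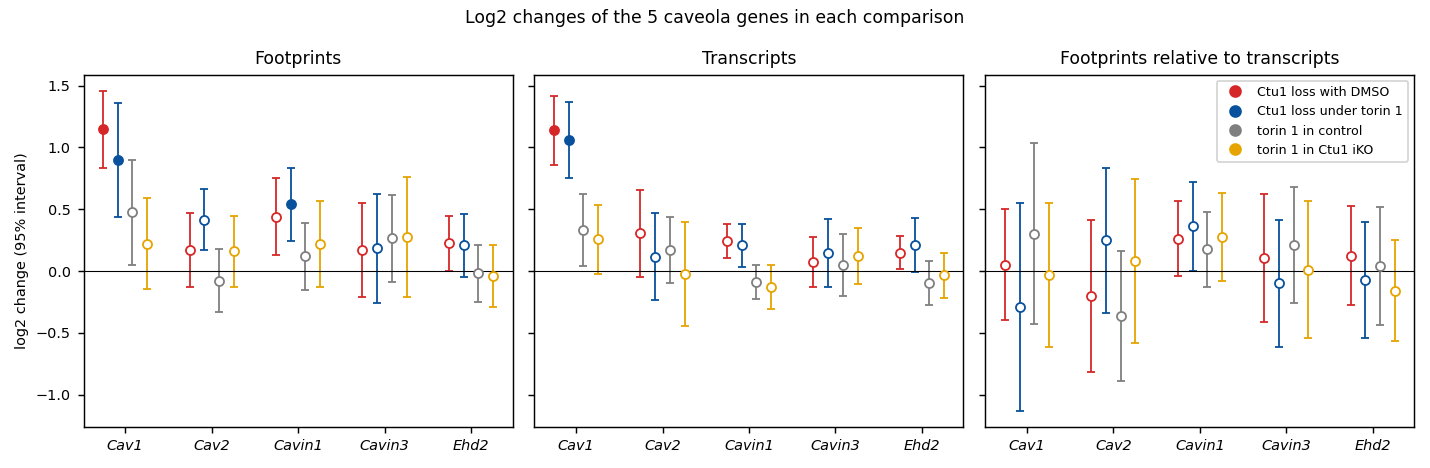
Log2 changes of the 5 genes in footprints (left), transcripts (middle) and footprints relative to transcripts (right) for 4 comparisons in colours, with 95% intervals. Filled points passed an adjusted p under 0.05: Cav1 for both Ctu1 comparisons in footprints (1.15 and 0.90) and transcripts (1.14 and 1.06), and Cavin1 footprints under torin 1 (0.54); every point in the right panel is open.

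Footprints relative to transcripts ask whether ribosome occupancy moved beyond RNA level, using replicates 1 to 3 of both assays. For Cav1 with DMSO the log2 ratio of footprint to RNA CPM was 0.21 ± 0.12 in control and 0.34 ± 0.16 in Ctu1 iKO samples (SD, n = 3), and the change was 0.05 ± 0.21 (adjusted p = 1, 95% interval -0.40 to 0.50). Cavin1 ratios were -0.84 ± 0.11 in control and -0.52 ± 0.15 in Ctu1 iKO samples with DMSO and at -0.54 ± 0.09 and -0.09 ± 0.17 with torin 1. In both treatments its 3 Ctu1 iKO replicates were above its 3 control replicates. The share of all genes that separate in this way was not counted. Its changes of 0.26 ± 0.14 with DMSO and 0.36 ± 0.17 under torin 1 (adjusted p = 1 and 0.9999, unadjusted p under 0.05 only in the second, as 4.73% of all genes had) did not pass. None of the 5 genes was called in the 4 comparisons by edgeR, with or without a replicate block, or by DESeq2. Over all genes, edgeR called 0% of 10386 genes for Ctu1 loss with DMSO (399 at an unadjusted p under 0.05, 21 by DESeq2), 0.111% of 9901 under torin 1, 1.14% of 9848 for torin 1 in control and 1.67% of 9845 in Ctu1 iKO cells. In the same order, DESeq2 called 0.202%, 1.05%, 2.38% and 3.23% of all genes, and edgeR with the block 0.00963%, 0.141%, 1.13% and 1.91%. The intervals were wide, reaching from -1.13 to 0.55 for Cav1 under torin 1.

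Cav1 and Cav2 can be set against each other within a library, which no scaling of libraries touches. The Cav1 to Cav2 footprint count ratio ran from 2.11 to 3.01 (median 2.38) in control DMSO and was 4.36, 6.09, 5.13, 4.53 and 3.72 in Ctu1 iKO DMSO libraries. With torin 1 it ran from 2.54 to 5.46 (median 3.11) in control and from 3.99 to 8.44 (median 4.51) in Ctu1 iKO libraries. With DMSO the knockout libraries were above all control libraries, and with torin 1 the ranges overlapped. In RNA the ratio was 2.26 to 3.51 in control and 4.79 to 5.55 in Ctu1 iKO cells with DMSO, and 2.81 to 3.64 and 4.92 to 7.60 with torin 1, without overlap in either.

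**Figure D5:**
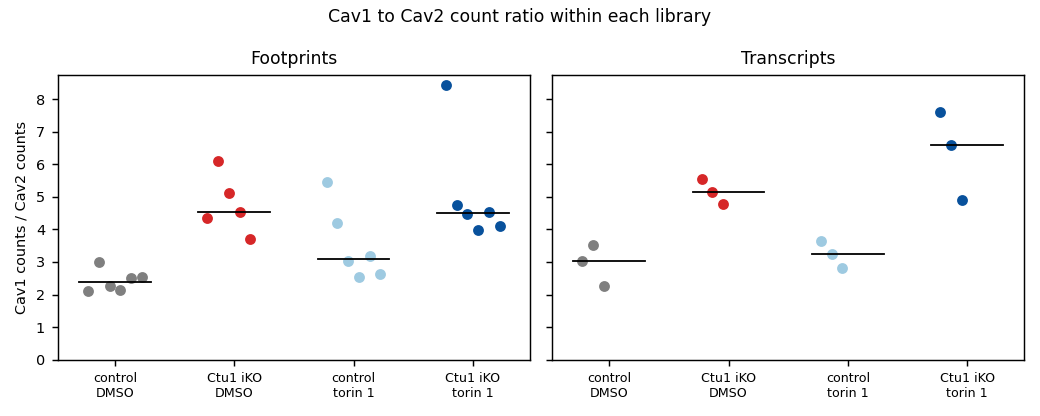
Count ratio of Cav1 to Cav2 in each library, for footprints (left) and RNA replicates 1 to 3 (right), by group, with the group median as a line. Control DMSO footprint libraries lie between 2.11 and 3.01 and Ctu1 iKO DMSO libraries between 3.72 and 6.09; the highest value, 8.44, is Ctu1 iKO torin 1 replicate 1.

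Within 500 kb of Cav1, the tables listed Tes, Met, Capza2 and St7 beside Cav2, which is described above with the calls it gained under the replicate block. The 4 others were not called in the Ctu1 comparisons by edgeR without a block. For Ctu1 loss with DMSO their footprint changes were 0.28 ± 0.12 for Tes, a focal adhesion protein, -0.15 ± 0.11 for Met, the hepatocyte growth factor receptor, 0.27 ± 0.12 for Capza2, an actin capping subunit, and 0.16 ± 0.18 for St7 (adjusted p = 0.236, 0.505, 0.273 and 0.685). The difference from Cav1 was not tested. Their RNA changes in the same comparison ran from 0.04 for Met to 0.29 for Tes, and under torin 1 the Ctu1 comparison gave 0.49 ± 0.16 for Tes footprints (adjusted p = 0.0958) and 0.46 ± 0.12 for Tes RNA (adjusted p = 0.103). With torin 1 in Ctu1 iKO cells, Met footprints (0.49 ± 0.12, adjusted p = 0.018) and Tes RNA (0.67 ± 0.14, adjusted p = 0.0302) were called.

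Of 16 further proteins of the caveolar coat, neck and related membrane domains, 11 were listed with DMSO and 10 with torin 1; Cav3, Ehd3, Pacsin1, Ror1 and Nos3 were in neither table. Cavin2, the coat subunit that shapes the membrane curvature with Cavin1, was called higher in all 4 Ctu1 comparisons. Its footprints were 10.1 to 21.1 CPM (median 12.8) in control and 21.6 to 34.5 CPM (median 23.8) in Ctu1 iKO libraries with DMSO, a log2 change of 0.81 ± 0.20 (adjusted p = 0.0419). Its RNA changed by 0.74 ± 0.10 with DMSO (adjusted p = 0.0174) and by 0.89 ± 0.15 under torin 1 (adjusted p = 0.0469), and its footprints under torin 1 by 0.71 ± 0.19 (adjusted p = 0.0435). The footprint call with DMSO was lost in 8 of 11 fits that left out 1 library (control replicates 3 to 6, Ctu1 iKO replicates 1, 2, 3 or 5), and the RNA call under torin 1 in 5 of 6 (all but Ctu1 iKO replicate 3) and with library totals alone or all RNA replicates. Cavin4, the muscle cavin, rose in RNA with DMSO by 0.89 ± 0.12 (adjusted p = 0.0147), and its footprints changed by 0.80 ± 0.26 (adjusted p = 0.115). Both RNA calls with DMSO were lost without control replicate 2 or Ctu1 iKO replicate 1, and 1 of the 2 without Ctu1 iKO replicate 2.

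The remaining calls on that list were few. Flot2, a flotillin of a separate membrane domain, rose in footprints for Ctu1 loss under torin 1 (0.59 ± 0.15, adjusted p = 0.0349). In replicates 1 to 3 alone neither this call nor that of Cavin2 in the same comparison was made, and in replicates 4 to 6 alone 1 partner was called, beside 0.0101% and 2.3% of all genes. With torin 1 in Ctu1 iKO cells, footprints of Flna, the actin crosslinker that tethers caveolae, rose by 1.08 ± 0.26 (adjusted p = 0.02) and those of Ehd1, an endosomal relative of Ehd2, fell by 0.48 on the log2 scale (SE 0.12, adjusted p = 0.0252). Flna RNA rose by 1.16 ± 0.24 (adjusted p = 0.0304), a call lost without any of the 3 Ctu1 iKO DMSO libraries or Ctu1 iKO torin 1 replicate 2. One of the 2 footprint calls was lost without Ctu1 iKO DMSO replicate 2, 3 or 5 or torin 1 replicate 5. In footprints 1 of 11 listed partners was called for Ctu1 loss with DMSO (range -0.08 to 0.81, median 0.21), 2 of 10 under torin 1 (-0.25 to 0.73, median 0.27), 0 of 10 for torin 1 in control and 2 of 10 in Ctu1 iKO cells, beside 2.66%, 4.83%, 7.24% and 8% of all genes. In RNA the counts were 2 of 11, 1 of 10, 0 of 10 and 1 of 10, beside 5.12%, 1.31%, 13.1% and 8.25%. Where the replicate numbers pair the libraries, the block called 4 partners in footprints for Ctu1 loss under torin 1 and 4 for torin 1 in control cells, and in RNA 4, 4, 2 and 1 in the order above, beside the larger shares of all genes given for the block above. The lists were drawn up with earlier results of these data known, and their counts are a description.

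Across the 23 footprint libraries the 5 genes varied together unevenly. Pearson's r of log2 CPM was 0.81 for Cav1 and Cavin1, 0.71 for Cav1 and Cav2 and 0.79 for Cavin1 and Cavin3, and 0.31 or less between Ehd2 and Cav1 or Cavin3. These points share groups, libraries and depth. Taken as deviations from group means, r was 0.84 for Cavin1 and Cavin3, 0.46 for Cav1 and Cavin1 and -0.59 for Cav1 and Ehd2. The genes whose footprints followed the mean profile of the 5 most closely, among 8851 with a mean of at least 100 footprint counts, were Map1lc3b (r = 0.94), Septin9 (0.94), Cdkn2a (0.94), Cavin2 (0.92) and Fam129b (0.92). Map1lc3b is the LC3B protein of autophagosomes. These genes were picked on the same libraries, so likeness lends no support to the tests of Cavin2 given above, and no test of the other 4 is given.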

How the data were processed

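In the methods, poly(A) RNA was taken from the lysates used for footprints. Whether libraries of the same number share a lysate in all replicates is not settled, since several RNA libraries lay apart from their labels and the footprint libraries did not. The authors deposited raw counts per gene symbol. Per the methods and labels, footprint reads were trimmed (cutadapt 3.4), fragments under 27 nt dropped, molecular identifiers handled with UMI-tools 1.1.1 (whether duplicates were collapsed is not given in the sources used here), rRNA removed and genes counted by STAR 2.5.3a. Labels name mm10, and the methods name a human build; all symbols are murine. The stranded RNA counts are all even numbers, so depth may be overstated there. The tables listed 10420 entries with DMSO and 9936 with torin 1. Every gene reached at least 100 footprint counts in some library. The 11 symbols on several entries were dropped.

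Genes were fitted with edgeR 4.0.16 (quasi-likelihood test, TMM, mean of at least 10 counts, Benjamini-Hochberg, adjusted p under 0.05), over all footprint replicates and RNA replicates 1 to 3. Footprints relative to transcripts were tested as the assay by group interaction. Scripts were tested on simulated data. Alternatives were DESeq2 1.42.0, library totals alone, other filters, a replicate block, other replicates and leaving out each library; the last was not run for footprints in the comparisons with 6 libraries a group (Ctu1 loss under torin 1 and torin 1 in control cells) or in the interaction. Replicate numbers were taken to pair libraries where every pair's deviations from group means correlated over 0.1: in the 4 RNA comparisons (0.487 to 0.837), and in footprints for Ctu1 loss under torin 1 (0.32 to 0.546) and torin 1 in control cells (0.436 to 0.641).

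The genes, lists and tests were chosen with earlier results of these data known. Named genes are the 5 genes, Ctu1, partners called at least once and the 5 genes whose log2(CPM + 1) over 23 footprint libraries followed the mean of the 5 most closely; genes within 500 kb of Cav1 were added after values were seen. Levels per length used GENCODE M21 and promoters RefSeq, which matched 4 of 5 genes. Footprint totals differ more than RNA totals, and the smallest count of any of the 5 genes, 167, limits Cavin3 most.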

Additional observations from a re-analysis of the deposited data

Results flagged for a closer look

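Cav2 footprints in control DMSO replicate 1, at 49.46 CPM, lay far from the other 5 libraries of that group, whose values began at 28.8 CPM. This was 1 of 20 footprint groups of gene and condition tested for a library set apart, by Dixon's 95% critical value. By its construction that value marks about 1 in 20 groups by chance. RNA groups, with 3 libraries each, were not tested in this way. Without that library the Cav2 footprint change for Ctu1 loss with DMSO was 0.29 ± 0.11 (edgeR, adjusted p = 0.175). Cav1 RNA in libraries outside the comparisons stood above the highest control DMSO value of replicates 1 to 3, 87.67 CPM, under the label control torin 1, at 88.59 CPM in replicate 4, 134.1 CPM in replicate 5 and 135.5 CPM in replicate 6. Replicates 5 and 6 are among the 6 RNA libraries that lay apart from their labels over all other genes.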

How the results depend on the processing

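For footprints and Ctu1 loss with DMSO, 1 of the 5 genes was called, against 2 with DESeq2, 0 in replicates 1 to 3 only and 0 in replicates 4 to 6 only (the last chosen after seeing the data); over all genes 277 calls became 700, 2 and 5. Under torin 1 the 2 called became 0 and 1 in those subsets, and 479 calls over all genes became 1 and 228, 842 with DESeq2 and 1425 with a replicate block, each of which called 3 of the 5, as did library totals alone. With a replicate block, torin 1 in control cells gave 1 called gene in footprints (2019 calls over all genes against 714) and 2 in RNA (4206 against 1259), and torin 1 in Ctu1 iKO cells 1 in RNA (3378 against 794). For RNA and Ctu1 loss with DMSO, the 1 called became 2 with DESeq2, 4 with a replicate block and 3 with all RNA replicates (518 calls over all genes became 1530, 2831 and 2677). Under torin 1 it became 2, 3 and 0 (126 became 1092, 3162 and 0), and torin 1 in control cells gave 1 with all RNA replicates. Leaving out 1 library gave 0 to 1 called in RNA for Ctu1 loss with DMSO (0 without control DMSO replicate 2) and 0 to 1 under torin 1. The replicate block left 1 and 0 called in the footprint comparisons whose numbers do not pair the libraries (364 calls over all genes for Ctu1 loss with DMSO and 983 for torin 1 in Ctu1 iKO cells), and changed no call of the 5 genes in the interaction or relative to transcripts. Of 834 values of the 5 genes under alternatives, 805 stayed on the same side of the threshold, 11 lost a call, 18 gained one and 0 called values reversed; 58 uncalled values changed sign. The median change of all genes had a size of up to 0.20 with library totals alone and up to 0.03 with TMM. Leaving out single libraries was not run for the footprint interaction or the footprint comparisons with 6 libraries a group. The cause of these changes was not tested. With 3 libraries a group, intervals of footprints relative to transcripts reached beyond 1 log2 unit for Cav1 under torin 1.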
